A study of Ovis aries with 15 samples.

Results

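The 6 circadian clock genes described here are CLOCK, NR1D1, RORA, DBP, NFIL3 and BHLHE40, followed at their promoters in sheep fat before and after birth. They were picked by name, with earlier results of these data known. They are 6 of the 18465 gene names that occur in any of the study's 3 promoter tables. All 6 are listed for the histone marks H3K27ac, which sits on active promoters and enhancers, and H3K4me3, which sits on promoters that are active or poised. None is listed for H3K27me3, the mark of genes silenced by Polycomb complexes.

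The circadian clock is a feedback loop of transcription that runs in nearly every cell, fat cells included. The CLOCK protein pairs with BMAL1 (listed under its older symbol ARNTL) and switches on genes through E-box sequences, among them those of their own repressors, the PER and CRY proteins. A second loop sets the level of BMAL1, which the nuclear receptor REV-ERBα (gene NR1D1) represses and the nuclear receptor RORα (gene RORA) activates. The output factor DBP switches on genes through D-box sequences, where NFIL3 acts as a repressor, and BHLHE40 (DEC1) represses E-box genes. Many of these transcripts rise and fall over the day, NR1D1 and DBP among the most strongly.

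Chromatin came from perirenal fat, the depot around the kidney, of purebred merino sheep that the labels give as wild type and untreated. The fetuses were taken at 132 days of gestation, with term at 150 days, and the lambs at 80 days after birth in the series description and 89 ± 7 days in the growth protocol. Each stage contributed animals 1 and 2 for every mark (2 fetuses against 2 lambs for H3K27ac and H3K27me3), and H3K4me3 had lamb 3 as well. Lamb titles alone carry the tag VEH, which the labels do not explain and which coincides with stage. The labels give no clock time of collection, so time of day and stage cannot be told apart for any gene here. Whole tissue was used, so fewer cells carrying a mark and less of the mark per cell cannot be told apart either.

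Values are the deposited promoter signal, rescaled so that libraries of 1 mark can be compared. The change is the log2 difference, lamb minus fetus, with its standard error (SE), and a promoter is called where limma's Benjamini-Hochberg adjusted p over the mark's whole table is under 0.05. Because the width of the promoter window is not stated, a higher level at 1 gene than at another is not read as more of the mark. Level is used only to group promoters, and ratios between genes only to compare the stages. Reads in peak regions ranged from 34871674 to 44096535 per H3K27ac library and from 12482468 to 58333449 per H3K4me3 library, with lambs 2 and 3 the shallowest for H3K4me3. The H3K27me3 libraries were shallower, with 7233767 to 10645917 such reads. In both marks strong promoters tended to be lower and weak promoters higher in lambs, so each gene's change is also given against the 500 promoters nearest to it in level. The fat genes ADIPOQ, PLIN1, FABP4, LPL and UCP1 were listed for H3K27ac and H3K4me3.

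For H3K27ac, CLOCK, NR1D1, DBP and BHLHE40 were lower in lambs and RORA was higher, while NFIL3 missed the threshold. Of all 13222 promoters 29.1% were called, 17.7% lower and 11.4% higher. The stages did not overlap at any of the 6 genes, nor at 66.4% of all promoters, where lambs were above at 33.0% and below at 33.5%. The median change of the 6 genes was -0.71, against 0.02 over all promoters and -0.14 over the 18 other clock genes listed. Because the 6 were chosen with earlier results of these data known, their median and calls do not stand for the clock as a whole.

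NR1D1 encodes REV-ERBα, the heme-binding receptor that represses BMAL1. Its H3K27ac signal was 485 and 414 in the fetuses and 227 and 254 in the lambs. Each lamb was thus far below each fetus, and the means of 450 ± 50.6 and 240 ± 18.8 (SD, n = 2 each) stand 1.86-fold apart. The log2 change was -0.90 (SE 0.13, limma adjusted p = 0.000113). The 500 promoters nearest in level had a median change of -0.33, and NR1D1 lay 0.57 below that median.

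RORA, whose product competes with REV-ERBα for the same DNA elements, went the other way. Its signal was 95.9 and 101 in the fetuses and 191 and 157 in the lambs, with no overlap. The means were 98.3 ± 3.47 and 174 ± 23.5 (SD, n = 2 each), 1.75-fold higher in lambs. The change was 0.81 (SE 0.20, limma adjusted p = 0.00572), and promoters of similar level had a median of 0.22. The call was lost when lamb 1 (limma adjusted p = 0.300) or lamb 2 (0.0608) was left out, and with the deposited scaling kept (0.102).

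The opposite shifts of these receptors can also be written as a ratio within each library, which no single factor per library can alter. The ratio restates the changes of the 2 genes and adds no further support. Quantile normalization, which is not a single factor, gave changes of -0.65 for NR1D1 and 0.64 for RORA. The NR1D1 to RORA ratio of H3K27ac signal was 5.06 and 4.11 in the fetuses and 1.19 and 1.61 in the lambs. The mean ratio was 3.27 times as high in fetuses, and the stages did not overlap. The ratio of NR1D1 to NR1D2, its paralog REV-ERBβ, was 2.69 and 2.66 in fetuses and 1.03 and 1.14 in lambs. With 2 libraries a stage, an exact permutation test of a single ratio cannot go below p = 0.333, so these ratios stand without a test. Promoters at the level of NR1D1 and RORA had median changes of -0.33 and 0.22, the same directions as these genes. The part of level in the ratio was not tested.

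DBP is the proline and acidic amino acid-rich leucine zipper factor that carries clock output to metabolic genes. Its H3K27ac signal was 414 and 391 in the fetuses and 236 and 219 in the lambs, a narrow spread within each stage. The means were 402 ± 15.8 and 227 ± 12.0 (SD, n = 2 each), 1.77-fold higher in fetuses. The change was -0.82 (SE 0.12, limma adjusted p = 0.000177), which is 0.57 below promoters of similar level.

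CLOCK, the activator with histone acetyltransferase activity, had 332 and 354 in the fetuses and 208 and 232 in the lambs. The lambs lay below the fetuses in each case. The means of 343 ± 15.4 and 220 ± 16.8 (SD, n = 2 each) differ 1.56-fold, with a change of -0.64 (SE 0.13, limma adjusted p = 0.00169) where promoters of similar level had a median of -0.18. Its partner ARNTL, which encodes BMAL1, was higher in lambs (0.56, limma adjusted p = 0.0148), where promoters of similar level had a median of 0.12. The ARNTL signal was 154 and 144 in the fetuses and 237 and 204 in the lambs, and the CLOCK to ARNTL ratio went from 2.16 and 2.46 in fetuses to 0.878 and 1.14 in lambs. At this mark the genes of the 2 partners thus moved in opposite directions. The ARNTL call was lost without lamb 1 (limma adjusted p = 0.381), without lamb 2 (0.0918) and with the deposited scaling (0.434).

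BHLHE40, the E-box repressor DEC1, had 376 and 249 in the fetuses and 181 and 175 in the lambs. Fetus 1 stood well above fetus 2, and both lambs were lower than either. The means were 312 ± 89.8 and 178 ± 4.29 (SD, n = 2 each), 1.71-fold higher in fetuses. The change was -0.77 (SE 0.17, limma adjusted p = 0.00261). Promoters of similar level had a median of -0.04. Without fetus 1 the change was -0.47 (limma adjusted p = 0.00459), smaller but still called.

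NFIL3, the bZIP repressor that binds the same D-box elements as DBP, had 256 and 307 in the fetuses and 235 and 201 in the lambs. The stages did not overlap, but lamb 1 came close to fetus 1. The change was -0.37 (95% confidence interval -0.67 to -0.07, limma adjusted p = 0.0627), so it was not called, and promoters of similar level had a median of -0.14. It passed without fetus 1 (limma adjusted p = 0.00154), with the deposited scaling (0.00661) and with a replicate block (0.0187). Without fetus 2 the change was -0.22 (limma adjusted p = 0.198) and without lamb 2 it was -0.25 (0.464). The DBP to NFIL3 ratio was 1.61 and 1.27 in fetuses and 1.00 and 1.09 in lambs, without overlap.

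**Figure D1:**
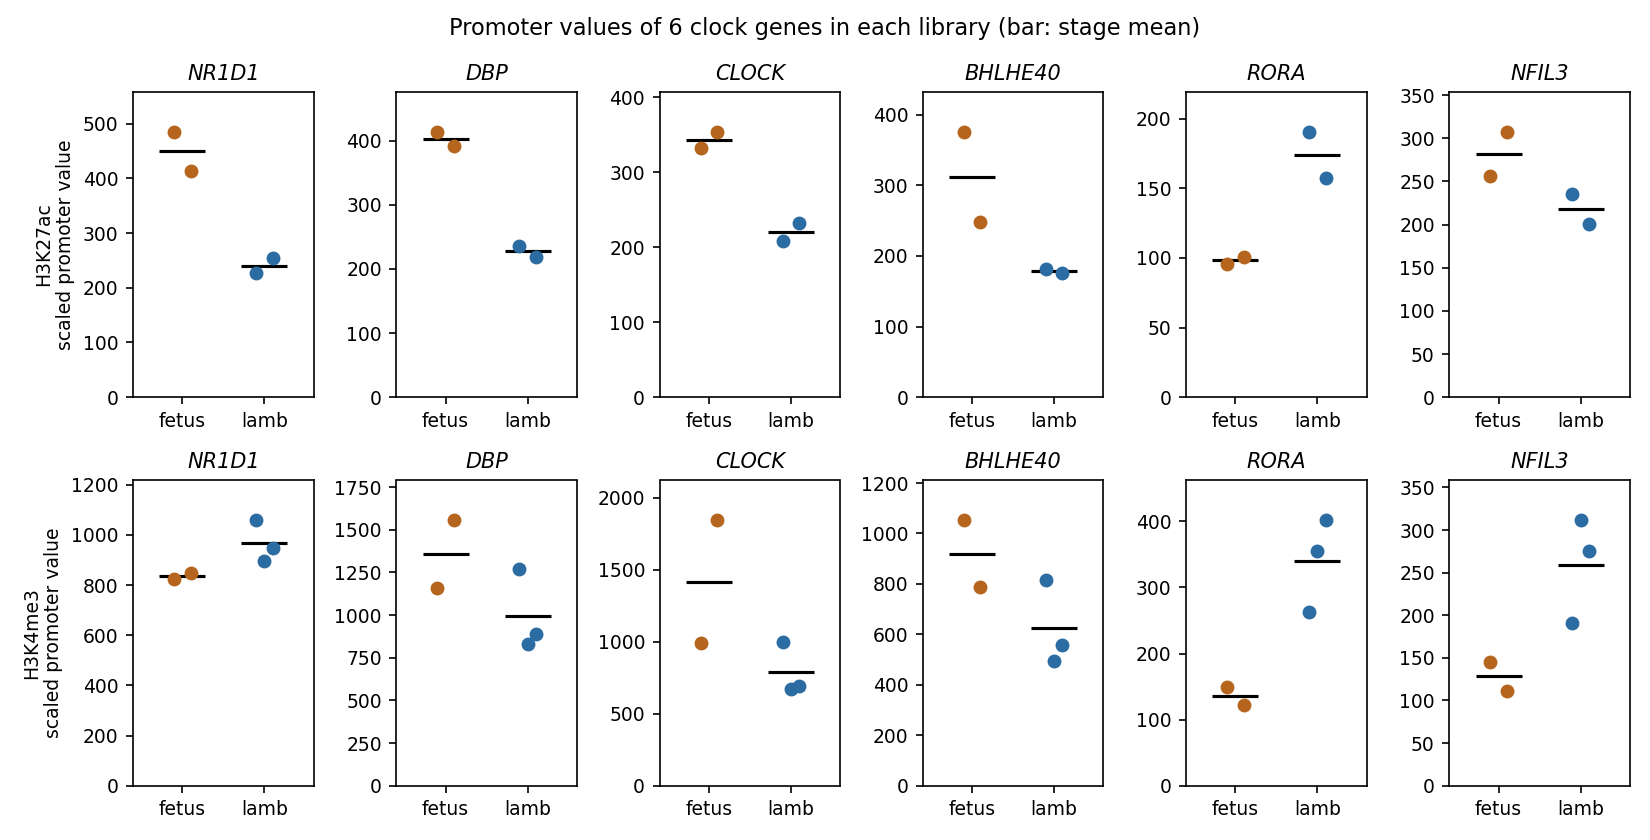
Rescaled promoter signal of the 6 clock genes in each library for H3K27ac (upper row) and H3K4me3 (lower row), on linear axes from 0 with a scale of their own per panel, with a point for each fetus or lamb and a bar at the stage mean. For H3K27ac the lambs lie below the fetuses at 5 genes and above them at RORA. For H3K4me3 the stages overlap at CLOCK, DBP and BHLHE40.

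For H3K4me3 only RORA was called among the 6 genes, higher in lambs, and with limma 0 were called lower, where 2 were lower at an unadjusted p under 0.05 (CLOCK and BHLHE40). Of 12922 promoters 10.2% were called, 8.33% higher and 1.90% lower. The stages did not overlap at NR1D1, RORA and NFIL3, with lambs above, nor at 48.5% of all promoters (lambs above at 25.7% and below at 22.8%). The median change of the 6 was -0.13, against 0.00 over all promoters.

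RORA had an H3K4me3 signal of 149 and 123 in the fetuses and of 262, 355 and 402 in the lambs. Every lamb was above both fetuses. The means were 136 ± 18.8 (SD, n = 2) and 340 ± 70.8 (SD, n = 3), 2.46-fold higher in lambs, with a change of 1.30 (SE 0.36, limma adjusted p = 0.0216). Promoters of similar level had a median of 0.51. The call held in 5 of 12 alternatives. Without lamb 2 the limma adjusted p was 0.199, and without lamb 3 it was 0.446. With the deposited scaling the change was 0.02, where all promoters had a median of -1.28.

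NR1D1, which fell for H3K27ac, was not called for H3K4me3. Its H3K4me3 signal was 824 and 850 in the fetuses and 1058, 896 and 948 in the lambs, so that the lambs lay slightly above. The change was 0.21 (95% confidence interval -0.36 to 0.77, limma adjusted p = 0.597), and the interval leaves room for a change in either direction. Promoters of its level had a median of -0.56. With the deposited scaling the change was -1.08, where all promoters had a median of -1.28. Quantile normalization gave 0.70 (limma adjusted p = 0.0728).

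NFIL3 had 145 and 111 in the fetuses and 191, 311 and 276 in the lambs, without overlap. The change of 0.99 (95% confidence interval 0.19 to 1.79, limma adjusted p = 0.0801) was not called, and promoters of its level had a median of 0.85. Without fetus 1 its change was 1.18. With the deposited scaling its change was -0.29, where all promoters had a median of -1.28. CLOCK had 987 and 1843 in the fetuses and 1000, 671 and 691 in the lambs, where lamb 1 was above fetus 1. Its change was -0.80 (95% confidence interval -1.41 to -0.19, limma adjusted p = 0.0678). Promoters of its level had a median of -0.58. Without fetus 1 the CLOCK change passed at -1.25 (limma adjusted p = 0.000190), without fetus 2 it was -0.35 (0.455), and with quantile normalization it was -0.20 (0.593).

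DBP and BHLHE40 overlapped between stages for H3K4me3. DBP had 1161 and 1555 in the fetuses and 1269, 833 and 887 in the lambs, a change of -0.46 (95% confidence interval -1.08 to 0.17). BHLHE40 had 1052 and 787 in the fetuses and 817, 495 and 558 in the lambs, a change of -0.58 (95% confidence interval -1.13 to -0.02). Their limma adjusted p were 0.269 and 0.128. Promoters of similar level had a median of -0.64 for DBP, which thus lay 0.18 above its level group, and of -0.47 for BHLHE40.

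Whether the marks changed differently at a promoter was tested directly, as the H3K27ac change minus the H3K4me3 change in animals 1 and 2 of each stage. Over 10103 promoters 0.0990% were called (0.00990% with the H3K27ac change above and 0.0891% with it below), and with limma 0 of the 6 clock genes were, of which 2 had an unadjusted p under 0.05. These were NR1D1, with a difference of -1.12 (95% confidence interval -1.84 to -0.40, limma adjusted p = 0.297), and NFIL3, with -1.30 (95% confidence interval -2.38 to -0.22, limma adjusted p = 0.487). A difference between the marks is therefore not shown for NR1D1 after adjustment. The NFIL3 difference passed without lamb 1 (-1.76, limma adjusted p = 0.0441), where 459 promoters were called below against 9 with all libraries. It was -0.84 without lamb 2 and -0.51 with quantile normalization, and was called in neither. DBP (-0.44), RORA (-0.36), BHLHE40 (-0.26) and CLOCK (0.08) had smaller differences.

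The NR1D1 to RORA ratio of H3K4me3 signal was 5.52 and 6.93 in the fetuses and 4.03, 2.52 and 2.36 in the lambs, without overlap. For DBP to NFIL3 it was 7.98 and 14.0 in fetuses and 6.64, 2.67 and 3.22 in lambs. Lamb 1 lay nearest to the fetuses in both ratios. For H3K4me3, promoters at the level of NR1D1 and DBP had median changes of -0.56 and -0.64. Those at the level of RORA and NFIL3 had 0.51 and 0.85. The trend with level thus runs the same way as both ratios, and its part in them was not tested. The BHLHE40 to BHLHE41 ratio overlapped between stages for H3K4me3. For H3K27ac it was 1.23 and 1.21 in the fetuses and 1.03 and 0.838 in the lambs. Whether this ratio differed between the marks was not tested.

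**Figure D2:**
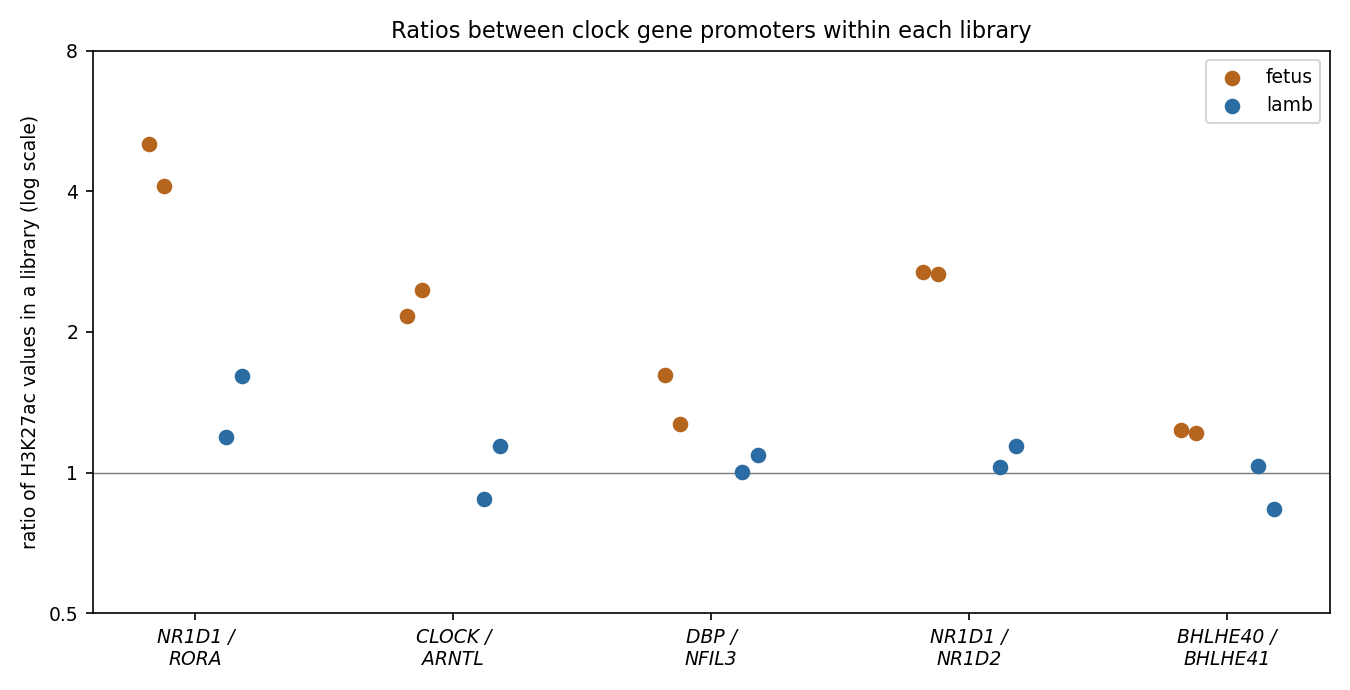
Ratios of H3K27ac promoter signal between clock genes within each library, on a log axis, with a point per fetus or lamb and a line at a ratio of 1. The NR1D1 to RORA ratio is 5.06 and 4.11 in the fetuses and 1.19 and 1.61 in the lambs, and the stages do not overlap in any of the ratios plotted. The pairs were picked by name. Stages did not overlap at 66.4% of single H3K27ac promoters, and the share among all pairs of promoters was not measured.

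**Figure D3:**
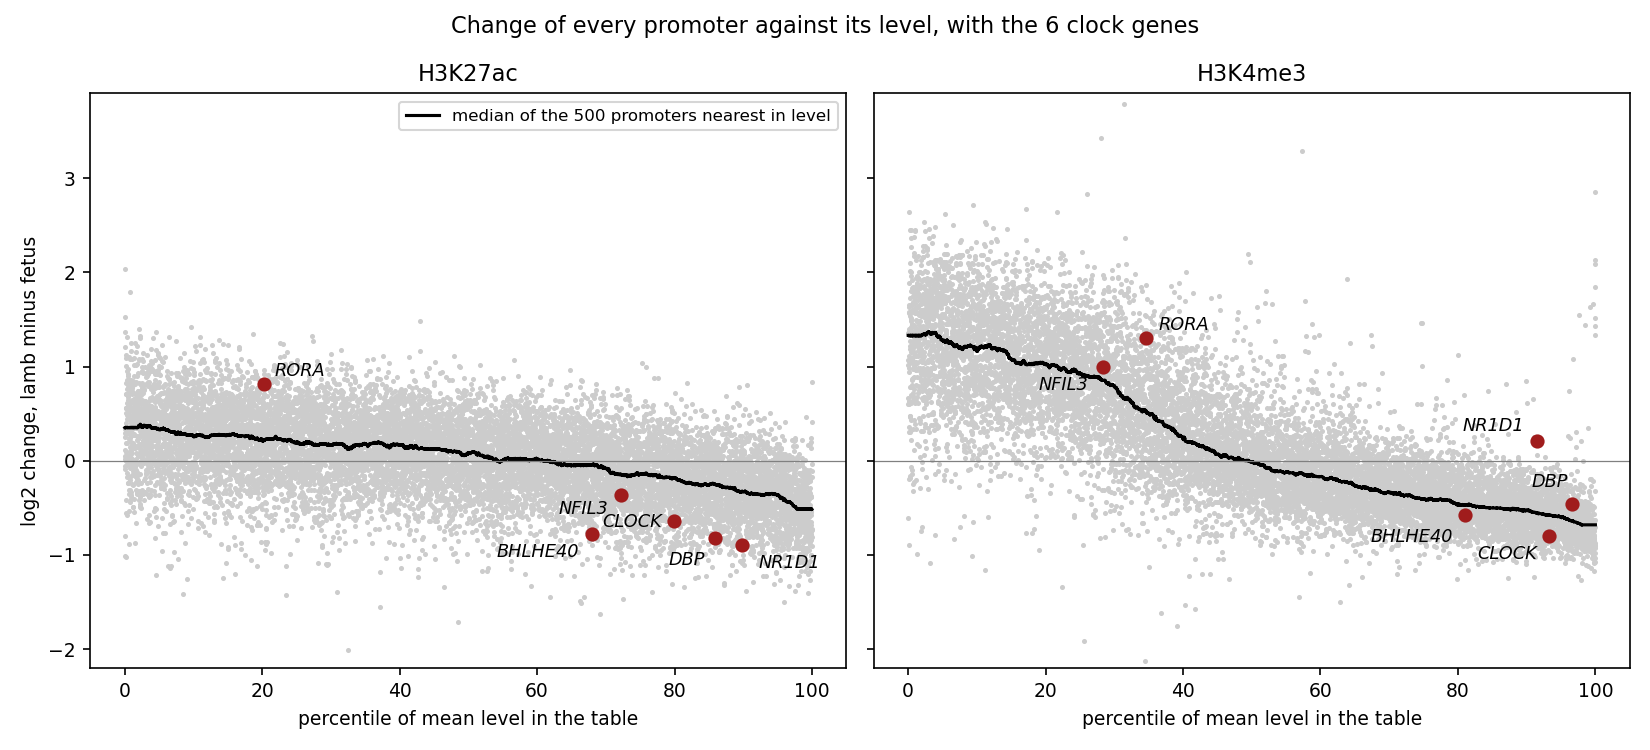
Log2 change, lamb minus fetus, against the percentile of mean level for every promoter of H3K27ac and of H3K4me3 (grey), with the 6 clock genes in red and a black line at the median of the 500 promoters nearest in level. The line falls with level in both marks. For H3K27ac RORA lies 0.59 above the line and BHLHE40 0.73 below it, and for H3K4me3 NR1D1 lies 0.76 above it.

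The rest of the clock was followed with a list of 28 further genes, of which 19 occur in any promoter table. For H3K27ac 18 were listed, and 3 rose, 2 fell and 13 were not called, with a median change of -0.14. Of all promoters 29.1% were called (11.4% higher and 17.7% lower), a share near that of the list. Among those that rose were ARNTL and FBXW11 (0.53, limma adjusted p = 0.00796). The FBXW11 call was lost without lamb 2 (limma adjusted p = 0.100). FBXW11 encodes part of a ubiquitin ligase directed at PER proteins. The genes that fell were GSK3B (-0.96, limma adjusted p = 6.44e-05), a kinase of clock proteins and of much else, and SIRT1 (-0.84, limma adjusted p = 0.00171), a deacetylase coupled to the clock. Promoters of similar level had a median of -0.26 for FBXW11, -0.23 for GSK3B and 0.07 for SIRT1.

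GSK3B had 407 and 387 in the fetuses and 197 and 212 in the lambs, and the lambs did not overlap the fetuses. SIRT1 had 223 and 295 in the fetuses and 131 and 156 in the lambs. Of the core repressors, CRY1, CRY2 and PER3 were listed and with limma 0 were called, also 0 at an unadjusted p under 0.05. Their changes were -0.14, -0.16 and -0.13, and the lowest bound of their 95% confidence intervals was -0.53 (PER3), short of the -0.90 of NR1D1. NR1D2, paralog of NR1D1, had 180 and 156 in fetuses and 221 and 222 in lambs (0.40, limma adjusted p = 0.0568).

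The relatives of DBP in the same leucine zipper family had lower means in lambs for H3K27ac but missed the threshold. TEF had 225 and 160 in the fetuses and 147 and 135 in the lambs (-0.42, limma adjusted p = 0.0964), without overlap. HLF had 277 and 256 in the fetuses and 170 and 254 in the lambs (-0.36, limma adjusted p = 0.112), where lamb 2 was close to fetus 2. The REV-ERB co-repressor genes NCOR1 (0.25, limma adjusted p = 0.312) and HDAC3 (0.32, limma adjusted p = 0.266) overlapped between stages.

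For H3K4me3 16 of these genes were listed, and 2 rose, 1 fell and 13 were not called, with a median of -0.17, beside 8.33% of the whole table higher and 1.90% lower. FBXW11 was higher in lambs (1.55, limma adjusted p = 0.0287). Promoters of similar level had a median of 1.03 for FBXW11 and of -0.64 for GSK3B. GSK3B was lower (-1.04, limma adjusted p = 0.0371), with fetus 2 at 2621 far above fetus 1 at 1083, and its change was -0.40 without fetus 2 (limma adjusted p = 0.392). The FBXW11 and GSK3B calls were lost without lamb 2 or lamb 3 (limma adjusted p of 0.257 to 0.447), and the GSK3B call also without lamb 1 (0.0658). Of 15 of these genes in both tables, with limma 0 had a change that differed between the marks, and 2 had an unadjusted p under 0.05.

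**Figure D4:**
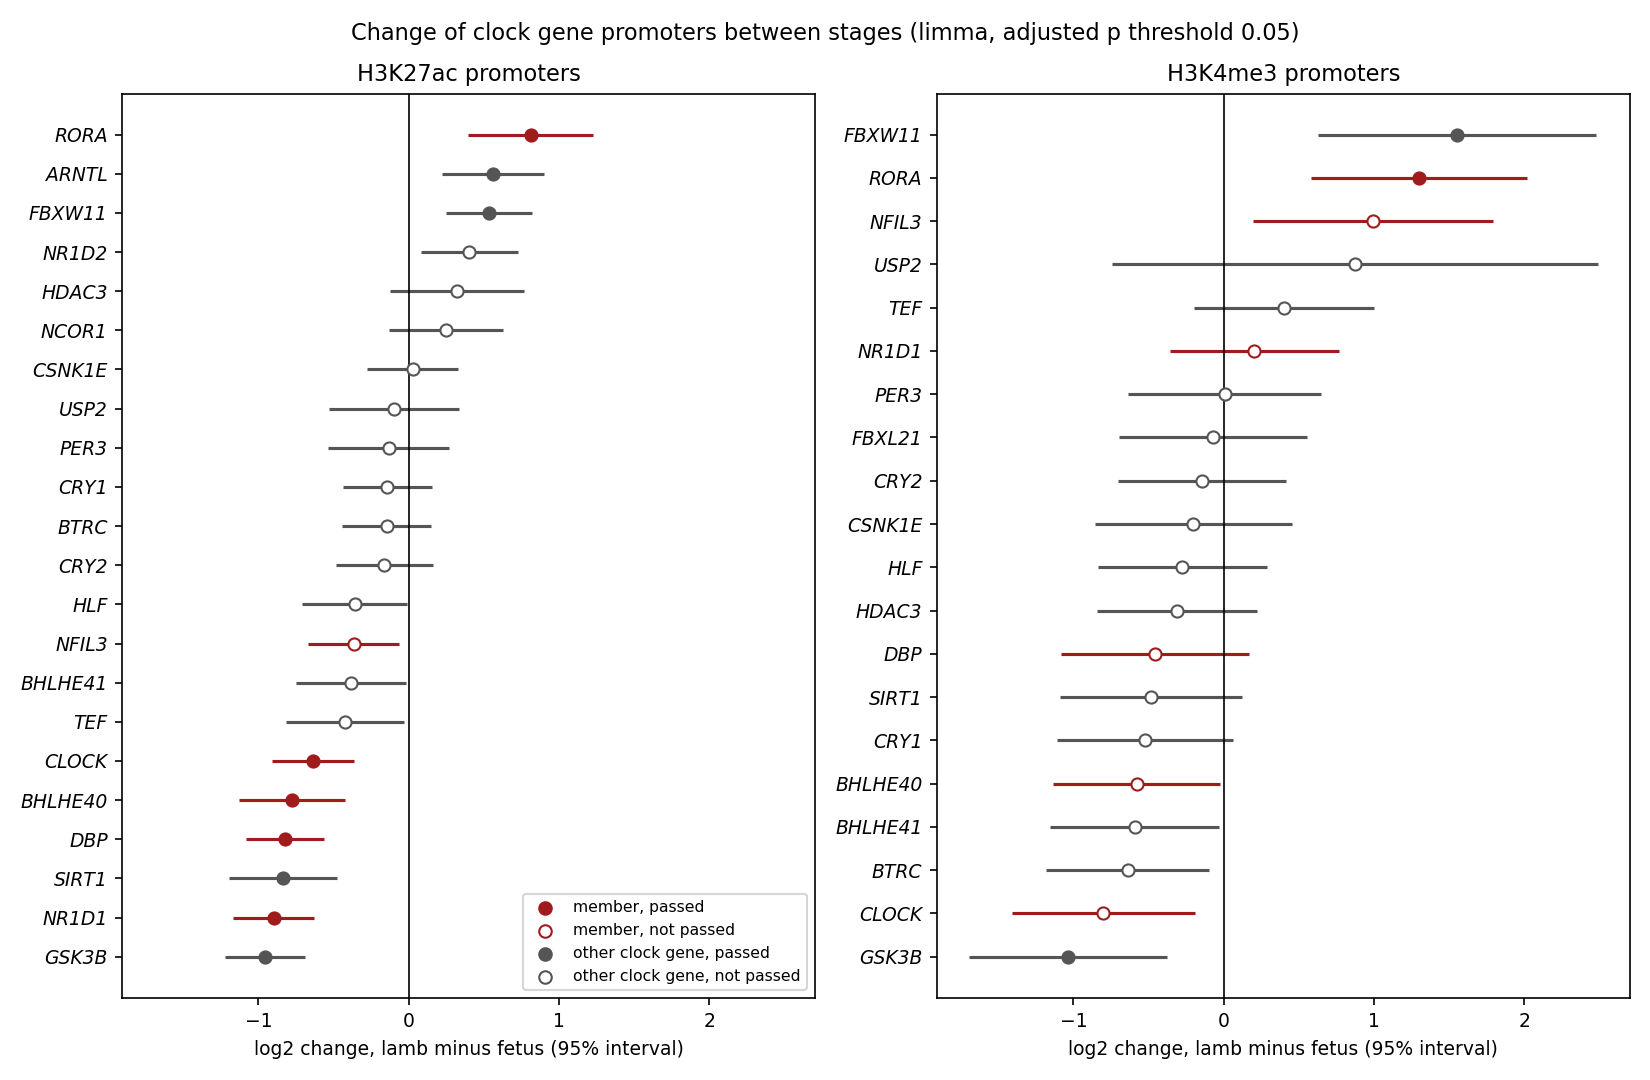
Log2 change, lamb minus fetus, of the clock genes reported here for H3K27ac (left) and H3K4me3 (right), ordered by change, with 95% confidence intervals from limma. Red marks the 6 main genes and grey the others, and filled points passed the threshold. RORA passed above 0 in both marks, while NR1D1 passed below 0 for H3K27ac (-0.90) and stood at 0.21 for H3K4me3.

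For H3K27me3 3 clock genes were among 6334 promoters, and all 3 were called, 1 higher and 2 lower, against 13.2% of the table (4.42% higher and 8.83% lower). Their stages did not overlap, nor did those of 59.8% of the table (lambs above at 30.5% and below at 29.3%). BHLHE41 (DEC2), paralog of BHLHE40, had 111 and 131 in the fetuses and 36.0 and 28.9 in the lambs. The deposited signal moved in steps of 3.57 in lamb 1 and 3.55 in lamb 2, so these lamb values rest on few steps. The silencing mark fell by 1.87 on the log2 scale (limma adjusted p = 0.0182), where promoters of similar level had a median of 0.19. Both lambs lay under 51.5, the lowest deposited maximum of any promoter listed for this mark. BHLHE41 is thus listed through its fetal values, which fixes the direction of its change. Its call, and the counts above that include it, are therefore not read as a result. The filter on low values removed BHLHE41. FBXL21, which encodes a ubiquitin ligase subunit, had 632 and 730 in the fetuses and 233 and 445 in the lambs (-1.08, limma adjusted p = 0.00657). Promoters at the level of FBXL21 had a median of -0.43. With quantile normalization the limma adjusted p of BHLHE41 and FBXL21 became 0.0523 and 0.183. Without lamb 2 they were 0.135 and 0.135, and without fetus 2 they were 0.300 and 0.0878. BHLHE41 was also lost without fetus 1 (0.169). The H3K27ac change of BHLHE41 was -0.38 (limma adjusted p = 0.107).

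The genes next to the 6 were taken from the gene order of a RefSeq assembly. Of 12 neighbours 9 were listed for H3K27ac, and 1 was lower and 8 were not called, beside 29.1% of all promoters called and 17.7% lower. The difference between a gene and its neighbour was not tested. THRA, the thyroid hormone receptor gene that overlaps NR1D1, had 212 and 173 in the fetuses and 217 and 204 in the lambs (0.14, limma adjusted p = 0.533). Beside DBP, SPHK2 had -0.31 (limma adjusted p = 0.0598), the same sign as DBP, and CA11 had -0.04. VPS13C beside RORA was the neighbour that was lower (-0.46, limma adjusted p = 0.0101), opposite to RORA itself.

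Likeness of pattern was measured over the 9 libraries of both active marks as the root mean square difference of log2 values, centred within each mark, among 10102 promoters. The promoters most like CLOCK were LRRC40 (0.03) and KANSL2 (0.03), and those most like DBP were TBC1D17 (0.07) and MPHOSPH10 (0.08). TRIP10 (0.10) was nearest to NR1D1, PTMA (0.08) to BHLHE40, PELI1 (0.11) to RORA and ACER3 (0.07) to NFIL3. No other member of the 6 was nearest to any: DBP, the member closest to BHLHE40, ranked 348 among all promoters, and for NFIL3 the closest member, RORA, ranked 2244.

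Markers of cell types and states are given as values beside these results, and their part in them was not tested. The shares to read them against are 11.4% of all promoters higher and 17.7% lower for H3K27ac, and 8.33% higher and 1.90% lower for H3K4me3. For H3K27ac 9 of 10 adipocyte markers were listed and 5 were lower, with a summed signal of 2907 to 3283 in fetuses and 1994 to 2054 in lambs. Of lymphocyte markers 7 of 12 were listed and 3 were higher, with sums of 972 to 998 in fetuses and 1207 to 1375 in lambs. The adipocyte sums thus lay lower and the lymphocyte sums higher in every lamb. These sums were not set against level, and strong promoters tended to be lower in lambs. For the 5 lower adipocyte markers, the change minus the median of similar-level promoters was -0.94 for UCP1, -0.44 for LPL and -0.44 for PLIN1. It was -0.41 for FABP4 and 0.03 for ADIPOQ. Of macrophage markers 5 of 10 were listed and 1 was lower, with sums of 986 to 1020 in fetuses and 1008 to 1071 in lambs. Of endothelial markers 5 of 6 were listed and 2 were lower, with sums of 1476 to 1499 and 1273 to 1324. Of adrenal markers 3 of 6 were listed and NR5A1 was higher, with sums of 596 to 602 and 660 to 680. The 1 skeletal muscle marker listed of 5, MYLPF, was higher. Of glucocorticoid-induced genes 5 of 8 were listed and 2 were lower (DUSP1 and KLF9), with sums of 1369 to 1581 and 1000 to 1014. Immediate early genes, which respond to handling and stress, had 5 of 9 listed, with sums of 868 to 1103 and 900 to 956. With limma 0 of these 5 were called, also 0 at an unadjusted p under 0.05.

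For H3K4me3, 2 of 9 listed adipocyte markers were lower, with sums of 4936 to 5505 in fetuses and 3127 to 3588 in lambs. Of 7 listed lymphocyte markers 2 were higher, with sums of 534 to 853 and 1033 to 1953, and of 5 listed macrophage markers 2 were higher, with sums of 1099 to 1488 and 1831 to 2120. These sums did not overlap between stages, and they too were not set against level. The sums of 5 glucocorticoid-induced genes were 3916 to 4271 in fetuses and 2472 to 3234 in lambs, and with limma 0 were called, where 2 were lower at an unadjusted p under 0.05. The sums of endothelial (2282 to 3453 against 2349 to 2662), skeletal muscle (142 to 531 against 350 to 840), adrenal (66.6 to 300 against 183 to 334) and immediate early genes (3728 to 4178 against 2779 to 3867) overlapped. No listed marker was at 0 in any library.

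In the authors' deposited table, the H3K27ac fold changes were -1.87 for NR1D1, -1.77 for DBP, -1.76 for BHLHE40, -1.55 for CLOCK and 1.77 for RORA, where a minus marks lower in lambs. In the authors' deposited table RORA had an H3K4me3 fold change of 2.49 with an adjusted p of 0.0140, and the other 5 genes had adjusted p above the threshold.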

How the data were processed

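Native chromatin was immunoprecipitated and sequenced by the authors. The submitters' processing notes name CLC Genomics Workbench 7.0, bedtools 2.19.0, edgeR and MACS without roles, and the build Oar_v3.1. Sequencing used more than 1 Illumina platform, with no platform named per library. The deposited promoter tables hold a scaled signal; neither its factor nor its window is stated. The lowest per-promoter maximum was 50.2, so weak promoters are absent. The deposited peak tables hold read counts, used for depth only. The fold changes and adjusted p-values of the authors come, per the file headers, from the EDGE test.

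Promoter values were rescaled by library (column total and TMM factor, edgeR 4.0.16). After a log2 transform with a pseudocount of 1, limma 3.58.1 was applied (trend, stage as the only term), with Benjamini-Hochberg adjustment over each table. For the difference between marks, the within-animal log2 ratio was tested alike. Replicates are separate animals. An exact permutation test cannot go below p = 0.333 (2 against 2) or 0.2 (2 against 3). Clock genes other than the 6 were matched by symbol or older symbol, and all that passed or were abundant were eligible for naming; some that count in the totals are not reported here by name. Neighbours come from the gene order of RefSeq assembly ARS-UI_Ramb_v3.0, names only. The input libraries were not used. The members and lists were chosen with earlier results of these data known. The script was tested on simulated data.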

Additional observations from a re-analysis of the deposited data

How the results depend on the processing

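Among the 6 genes, the H3K27ac calls of NR1D1, DBP, CLOCK and BHLHE40 held in 10 of 10 alternatives each, with limma adjusted p of at most 0.000936, 0.00149, 0.0459 and 0.00526. RORA kept its H3K27ac call in 6 of 9, and its H3K4me3 call in 5 of 12. With 2 or 3 libraries a stage, leaving 1 out can leave a lone library, which is then assumed to vary like the others. The planned count tests of whole reads were not run, because the deposited values are scaled and a check did not accept most columns as whole reads.

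Column totals in place of TMM gave 2314 higher H3K27ac promoters, and for H3K27me3 435 higher and 368 lower. With the deposited scaling, where the median promoter stood at -0.30 for H3K27ac (0.02 after rescaling) and at -1.28 for H3K4me3 (0.00 after rescaling), H3K27ac had 167 higher and 4012 lower promoters, 0 members higher, and 0 other clock genes higher and 6 lower. H3K4me3 then had 55 higher and 5623 lower, 0 members higher and 2 lower, and 0 other clock genes higher and 9 lower. NFIL3 stood at -0.29 and NR1D1 at -1.08, both reversed in sign but above the median promoter. H3K27me3 had 134 higher. Quantile normalization gave 32 higher and 12 lower for H3K4me3, 0 members higher and 0 other clock genes in either direction, DBP reversed at 0.16, and 32 higher and 70 lower for H3K27me3, with 0 other clock genes. The filter on low values gave 958 higher for H3K27ac with 0 members higher, since RORA was removed; 170 higher and 25 lower for H3K4me3 with 0 members and 0 other clock genes; and 1 other clock gene lower for H3K27me3.

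The replicate numbers name different animals, so the main fit held no block. Same-numbered deviations correlated at 0.28, -0.39 and 0.10 for H3K27ac, H3K4me3 and H3K27me3. With so few animals a stage, these values cannot decide whether equal numbers shared a step of processing. A replicate block gave 2343 higher H3K27ac promoters and 6 other clock genes lower, and 506 higher for H3K27me3. For H3K4me3 the block also left out lamb 3, and gave 3 higher and 0 lower with 0 members and 0 other clock genes. Without lamb 3 and with no block there were 8 higher and 4 lower. Leaving out lambs 2 and 3 together, chosen after seeing the data, gave 0 and 0 H3K4me3 promoters, 0 members and 0 other clock genes. For the difference between marks, quantile normalization and the block each gave 0 above and 0 below, and it reversed CLOCK (-0.33) and RORA (0.0082); leaving out 1 animal gave -0.32 (fetus 2) to 0.49 (fetus 1) for CLOCK, with -0.28 without lamb 2, and -0.59 (lamb 2) to 0.079 (lamb 1) for BHLHE40.

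Leaving out each library in turn gave, for H3K27ac, 142 to 2839 promoters higher and 1035 to 3014 lower, 0 to 1 members higher and 4 to 5 lower, and 0 to 5 other clock genes higher and 2 to 6 lower. For H3K4me3 it gave 8 to 2730 higher and 4 to 2950 lower, 0 to 2 members higher and 0 to 1 lower, and 0 to 4 other clock genes higher and 0 to 4 lower. For H3K27me3 it gave 0 to 520 higher and 0 to 885 lower, and 0 to 1 other clock genes higher and 0 to 2 lower. For the difference between marks it gave 0 to 5 above and 0 to 459 below. For H3K27ac the fewest calls came without lamb 1 (142 and 1035) and lamb 2 (268 and 1464), for H3K4me3 without lamb 3 (8 and 4) and lamb 2 (40 and 10), and for H3K27me3 without lamb 2 (0 and 0). The cause of these changes was not tested.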
